A study of Homo sapiens with 2 samples.

Results

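Formins are proteins that nucleate and elongate unbranched actin filaments, and 10 genes of the family were followed here in a carcinoma cell line kept on plastic or on Myogel. The genes DIAPH1, DIAPH2, DIAPH3, DAAM1, DAAM2, FMNL1, FMNL2, FMNL3, FHOD1 and INF2 were taken by name, and all probe sets that the array annotation assigns to exactly one of them were used. This gave 30 of 54613 probe sets, and 10 of the 19775 genes with at least one such probe set. The cells were HSC-3, a line established from a human carcinoma of the tongue, and both groups carried RFP (red fluorescent protein), introduced by lentivirus together with a control sequence that codes for nothing, under puromycin selection. The first group grew on uncoated plastic and the second on wells coated with Myogel, a protein extract of human uterine leiomyoma. In each group 90000 cells were seeded and harvested the next day, and equal amounts of RNA from 3 wells were pooled onto 1 Affymetrix U133 Plus array, so that every comparison sets 1 array against 1 array and no p-value can be given.

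Formins bind the growing end of an actin filament with a conserved formin homology domain, stay there while subunits are added, and take up profilin-bound actin through a neighbouring proline-rich stretch. Most members are folded into an inactive form until an activating protein binds them, and the filaments they build serve stress fibers, filopodia, the edge of moving cells and the contractile ring of dividing cells. In squamous epithelial cells they also take part in the assembly of cell-cell contacts. The question addressed was whether the coating went with other levels of these transcripts.

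The values are intensities on a linear scale, with a lowest value of 1 that acts as a floor. Their median over all probe sets was 59.7 on plastic and 52.5 on Myogel. The fold change (FC) is the Myogel value over the plastic value or its inverse, and the log2 FC is positive where the value was higher on Myogel. Its median over all 54613 probe sets was -0.11, so that the formin values are read against this shift. In place of a replicate error, each log2 FC is set against a range, the middle 95% of log2 FCs among the 1000 probe sets of most similar mean signal. Probe sets differ in how strongly they bind their transcript, so levels are compared between the surfaces and not between genes. All 7 measured markers of squamous epithelium were bright, with 1051 or more on plastic and 1073 or more on Myogel. For markers of other cell types, whose levels are likewise compared between the surfaces alone, the sums over the brightest probe sets were 648 on plastic and 630 on Myogel for 6 smooth muscle genes, 709 and 711 for 6 fibroblast genes, 393 and 291 for 4 endothelial genes and 511 and 398 for 5 blood genes. Of these, the smooth muscle gene CNN1 was at the floor on Myogel.

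The abundantly detected formins were mostly somewhat higher on Myogel, and DIAPH1, DIAPH3, FMNL2 and INF2 each had 1 probe set that was between 1.57-fold and 1.90-fold higher. The brightest probe sets of DIAPH1, DIAPH3 and FMNL2 were only 1.25-fold, 1.12-fold and 1.09-fold higher, inside their ranges. Another probe set of INF2 was 1.44-fold lower. Of the 30 probe sets, 9 were higher by FC 1.5 or more, 5 were lower by as much, and 16 lay within these limits. Among all 54613 probe sets, 13.8% passed FC 1.5 upwards and 24.2% downwards. The median log2 FC of the formin probe sets was 0.19. Probe sets of one gene may measure the same or different transcripts of it, and as they share the same arrays they are not independent of each other.

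These counts separated by signal. Among the 14 formin probe sets with a geometric mean of at least 100 units over the 2 arrays, 4 were higher by FC 1.5 or more and 0 were lower, against 2.24% higher and 4.52% lower among the 21633 probe sets of that signal. In total 12 of these 14 were higher on Myogel to any extent, against 41.7% of all probe sets of that signal, and their median log2 FC was 0.19 against -0.05. After loess centring, which removes the shift between the arrays, 12 of the 14 were again higher, against 50.2% of the 21633. With FC 1.5 and a difference of at least 100 units together, 4 formin probe sets were higher and 0 were lower, against 0.65% and 0.916% of all probe sets. The 4 are the same ones that lay above the range of their neighbours in signal, and none of the 30 lay below its range. The limit of 100 units of mean signal was chosen after the values had been seen, and the members with earlier results of these data known. The 14 probe sets come from DIAPH1, DIAPH3, DAAM1, FMNL1, FMNL2, FHOD1 and INF2 alone. Probe sets of one gene are not independent, so these counts and shares describe the 2 arrays and are no test.

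**Figure D1:**
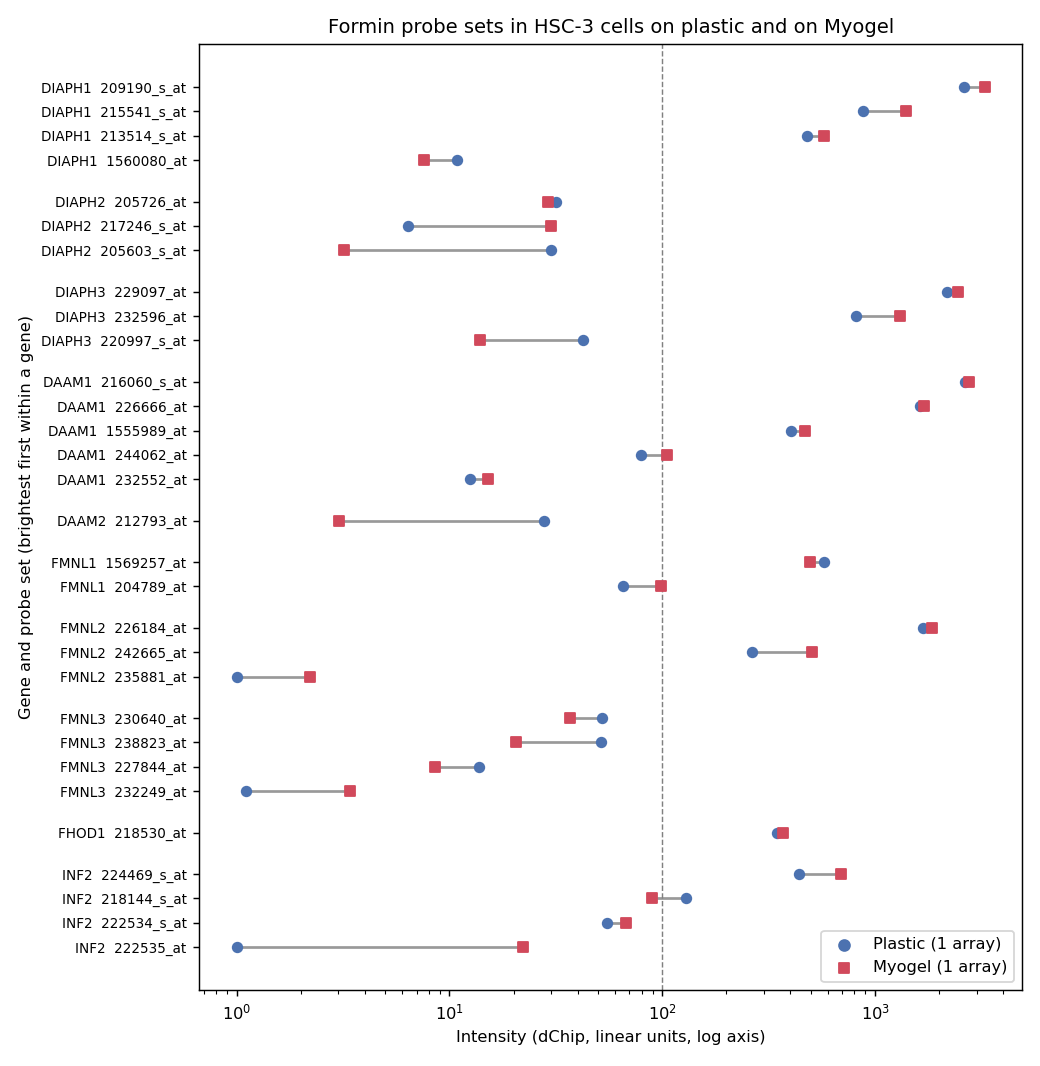
Intensity of each of the 30 formin probe sets (x axis, linear units on a log axis) on plastic (blue circles) and on Myogel (red squares), each from 1 array, grouped by gene with the brightest probe set first; the dashed line marks 100 units. To the right of this line nearly every red square lies to the right of its blue circle, while dim probe sets of one gene point both ways, as in DIAPH2 and FMNL3.

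The 16 formin probe sets with a mean signal under 100 went both ways, with 5 higher and 5 lower by FC 1.5 and 6 within it. None of them lay outside the range of its neighbours, and the widest of these ranges, that of an INF2 probe set with 1.00 on plastic and 22.2 on Myogel, reached from -4.67 to 4.60 on the log2 scale. Of the 8 formin genes with over 1 probe set, 6 had probe sets on both sides of no change. The share among all genes with several probe sets was not computed. When each gene was represented by its brightest probe set, 1 gene was higher by FC 1.5, INF2, and 1 was lower, the dim DAAM2, while 9.71% of all genes were higher and 17.5% were lower. The median log2 FC over the brightest probe sets of the 10 genes was 0.08, and over those of all genes it was -0.07.

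Several probe sets of one gene can be compared within these arrays. They share the same pools and arrays, so they do not stand in for replicates, and the limit on signal is the one chosen after the values were seen. Of the formin genes, 5 had at least 2 probe sets with a mean signal of 100 or more, and in 4 of them, DIAPH1, DIAPH3, DAAM1 and FMNL2, all such probe sets were higher on Myogel. Among the 4870 genes with at least 2 such probe sets this held for 14.9%, and after loess centring for 21.4%, when the formin count was again 4. The exception was INF2. The probe sets of a gene differed by a median of 0.32 in log2 FC over these 4870 genes, and by 0.15 for DAAM1, 0.40 for DIAPH1, 0.52 for DIAPH3, 0.80 for FMNL2 and 1.18 for INF2.

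**Figure D2:**
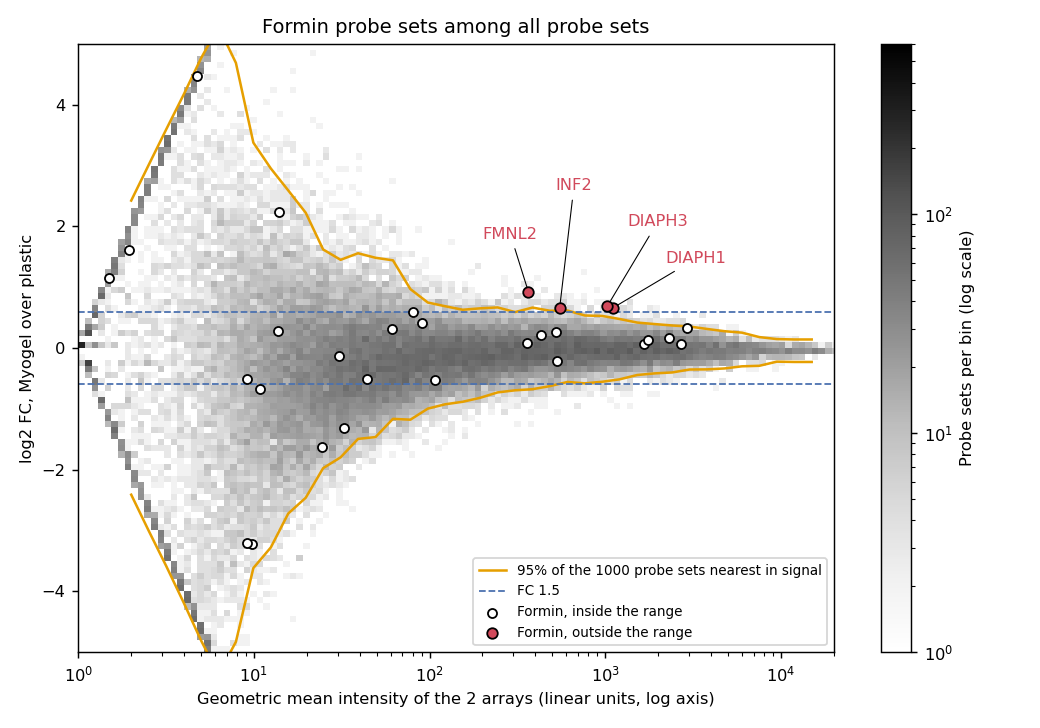
Ratio of the Myogel to the plastic value (y axis, log2 FC) against the geometric mean intensity of the 2 arrays (x axis, log axis); grey shade gives the number of probe sets per bin, orange lines the range of 95% of the 1000 probe sets nearest in signal, and dashed blue lines FC 1.5; probe sets beyond a log2 FC of 5 in either direction are not shown. The 4 red points of FMNL2, INF2, DIAPH3 and DIAPH1 lie above the range and the other 26 formin probe sets, in white, lie inside it.

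The 4 genes with a probe set above its range are shown by the bases before their transcription start, to let the members be compared in sequence as well. RefSeq on GRCh38.p14 gives 16 start sites for the 10 genes, and the 250 bases before the first listed site are printed 5′ to 3′ in the direction of transcription, with each GC box (GGGCGG on either strand, the binding motif of Sp1) in capitals. They are chr5:141619001-141619250 on the minus strand for DIAPH1, chr13:60163929-60164178 on the minus strand for DIAPH3, chr2:152334924-152335173 on the plus strand for FMNL2 and chr14:104689368-104689617 on the plus strand for INF2.
DIAPH1: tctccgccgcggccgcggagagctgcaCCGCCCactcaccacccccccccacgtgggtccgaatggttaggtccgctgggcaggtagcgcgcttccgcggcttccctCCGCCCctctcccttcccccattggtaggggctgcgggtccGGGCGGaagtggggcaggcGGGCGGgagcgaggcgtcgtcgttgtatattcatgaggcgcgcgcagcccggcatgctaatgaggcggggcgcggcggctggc
DIAPH3: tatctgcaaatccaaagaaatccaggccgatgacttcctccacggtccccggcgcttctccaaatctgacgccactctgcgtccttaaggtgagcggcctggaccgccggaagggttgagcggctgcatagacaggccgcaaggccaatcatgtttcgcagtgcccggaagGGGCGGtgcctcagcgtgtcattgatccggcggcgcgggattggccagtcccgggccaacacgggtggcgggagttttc
FMNL2: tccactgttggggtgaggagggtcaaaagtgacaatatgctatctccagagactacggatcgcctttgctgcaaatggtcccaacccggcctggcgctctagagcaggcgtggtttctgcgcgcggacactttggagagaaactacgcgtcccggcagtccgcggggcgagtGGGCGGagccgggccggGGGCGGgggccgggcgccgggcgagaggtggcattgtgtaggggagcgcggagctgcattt
INF2: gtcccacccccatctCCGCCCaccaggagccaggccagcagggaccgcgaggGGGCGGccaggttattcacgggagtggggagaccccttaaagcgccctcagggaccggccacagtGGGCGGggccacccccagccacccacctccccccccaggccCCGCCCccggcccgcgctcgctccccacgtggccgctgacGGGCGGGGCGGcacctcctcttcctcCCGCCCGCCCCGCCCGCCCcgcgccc

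The GC content of these windows was 72.8% for DIAPH1, 62.4% for DIAPH3, 65.2% for FMNL2 and 78.8% for INF2, against a median of 58.0% over 35116 windows of the same length. The first windows of the other 6 formin genes were similar, from 61.6% for DAAM2 to 79.2% for FMNL3, so that GC content does not set the 4 genes apart from them. With overlapping matches counted, the INF2 window held 10 GC boxes, that of DIAPH1 held 4, that of FMNL2 held 2 and that of DIAPH3 held 1. The first windows of the other 6 formin genes held from 2 in FHOD1 to 4 in FMNL3, so only the INF2 count exceeded them. Each of the 10 formin genes had a GC box in at least 1 window, in 11 of 16 windows in all, and 42.6% of all windows held one. The CArG box, bound by SRF, which answers to actin assembly, was found in 0 of the 16 formin windows and in 1.16% of all windows. The AP-1 motif TGANTCA was in 1 of the 16, a window of INF2, against 6.57% of all windows. The EGR motif GCGNGGGCG, which can overlap a GC box, was in 0 of the 16 against 8.41%, and the TEAD motif GGAATG was in 2, of DIAPH3 and INF2, against 11.9%. Each motif was searched on both strands. A match is a run of letters and no measured binding.

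The diaphanous formins are effectors of RHOA and related GTPases. DIAPH1, which builds the filaments of stress fibers and also stabilises microtubules, was higher in all 3 of its bright probe sets. Probe set 209190_s_at had 2625 on plastic and 3285 on Myogel, 1.25-fold higher, with a log2 FC of 0.32 just inside its range of -0.37 to 0.34. Probe set 215541_s_at had 881 on plastic and 1393 on Myogel, 1.58-fold higher, and its log2 FC of 0.66 lay above the range of -0.53 to 0.48. The third, 213514_s_at, had 479 and 573, with a log2 FC of 0.26 inside its range. All 3 are of the _s_at kind, whose probes may match more than one transcript. The fourth, 1560080_at, was near the floor with 10.8 on plastic and 7.63 on Myogel.

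DIAPH3, which acts in filopodia and in the contractile ring, was higher in both of its bright probe sets, by unequal amounts. Probe set 229097_at had 2174 on plastic and 2444 on Myogel, 1.12-fold higher and inside its range. Probe set 232596_at had 810 on plastic and 1305 on Myogel, 1.61-fold higher, with a log2 FC of 0.69 above the range of -0.51 to 0.50. The third probe set, 220997_s_at, was dim and lower, with 42.6 on plastic and 13.8 on Myogel. It stayed inside its range.

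DIAPH2, whose disruption has been linked to ovarian insufficiency, was dim in all 3 probe sets, and these disagreed. Probe set 205726_at had 31.8 on plastic and 28.9 on Myogel. Probe set 217246_s_at had 6.38 on plastic and 29.9 on Myogel while 205603_s_at had 29.9 and 3.19, so that the log2 FCs were 2.23 and -3.23. Both lay inside the ranges for their signal, and no direction can be read for this gene.

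The DAAM formins bind Dishevelled and connect Wnt signals of planar cell polarity to RHOA and actin. DAAM1 was close to unchanged in value in its brightest probe sets and slightly higher in all 5. Probe set 216060_s_at had 2631 on plastic and 2767 on Myogel, and 226666_at had 1625 and 1702, each 1.05-fold higher. Probe set 1555989_at had 402 and 467, 1.16-fold higher. The dimmer 244062_at (79.1 and 104.7) and 232552_at (12.5 and 15.2) pointed the same way. All 5 lay inside their ranges and within FC 1.5, and DAAM1 had the smallest difference between bright probe sets among the 5 formin genes compared above.

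DAAM2, the relative of DAAM1, was measured by 1 dim probe set, with 27.8 on plastic and 3.02 on Myogel. The 9.21-fold lower value had a log2 FC of -3.20, inside a range of -4.15 to 3.92.

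The formin-like genes act at the leading edge and in filopodia. FMNL2 is an effector of CDC42 and RHOC that has been tied to the protrusion and invasion of carcinoma cells. It had the largest fold change among the formin probe sets with a mean signal of 100 or more. Probe set 242665_at had 265 on plastic and 503 on Myogel, 1.90-fold higher, and its log2 FC of 0.92 lay above the range of -0.68 to 0.60. The brightest probe set of the gene, 226184_at, had 1686 on plastic and 1842 on Myogel, 1.09-fold higher and inside its range of -0.42 to 0.40. Both bright probe sets were thus higher, but 1 only slightly. The third, 235881_at, was at the floor of 1.00 on plastic and had 2.22 on Myogel.

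FMNL1 is the formin-like gene of white blood cells. Its brighter probe set, 1569257_at, was slightly lower on Myogel, with 573 on plastic and 494 on Myogel, 1.16-fold lower. The dimmer 204789_at went the other way, with 65.3 on plastic and 98.7 on Myogel, 1.51-fold higher. Both lay inside their ranges. The brightest probe sets of the 5 measured blood markers had from 27.2 to 165 on plastic and from 21.0 to 213 on Myogel, none at the floor. Their other probe sets were not counted. Whether blood transcripts have any part in the values of FMNL1 was not tested.

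FMNL3, which acts in filopodia and cell-cell contacts, was dim in all 4 probe sets. Probe set 230640_at had 52.2 on plastic and 36.7 on Myogel, and 238823_at had 51.3 and 20.6. Probe set 227844_at had 13.7 and 8.58, while 232249_at, near the floor, had 1.11 and 3.39. The first 3 were thus lower and the dimmest higher, all inside their ranges.

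FHOD1, a formin activated by ROCK that bundles and protects stress fibers, was measured by 1 probe set of moderate signal. It had 348 on plastic and 368 on Myogel, 1.06-fold higher, and its log2 FC of 0.08 lay well inside the range of -0.67 to 0.60.

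INF2 both assembles and severs filaments and acts at the endoplasmic reticulum in the division of mitochondria. Its brightest probe set, 224469_s_at, had 439 on plastic and 690 on Myogel, 1.57-fold higher, and the log2 FC of 0.65 lay just above its range of -0.58 to 0.63. Probe set 218144_s_at was lower, with 129 on plastic and 89.9 on Myogel, 1.44-fold, inside its range. Probe set 222534_s_at had 54.7 and 67.8, and 222535_at was at the floor of 1.00 on plastic and had 22.2 on Myogel. The probe sets of INF2 therefore do not give one direction, although the brightest passed FC 1.5.

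**Figure D3:**
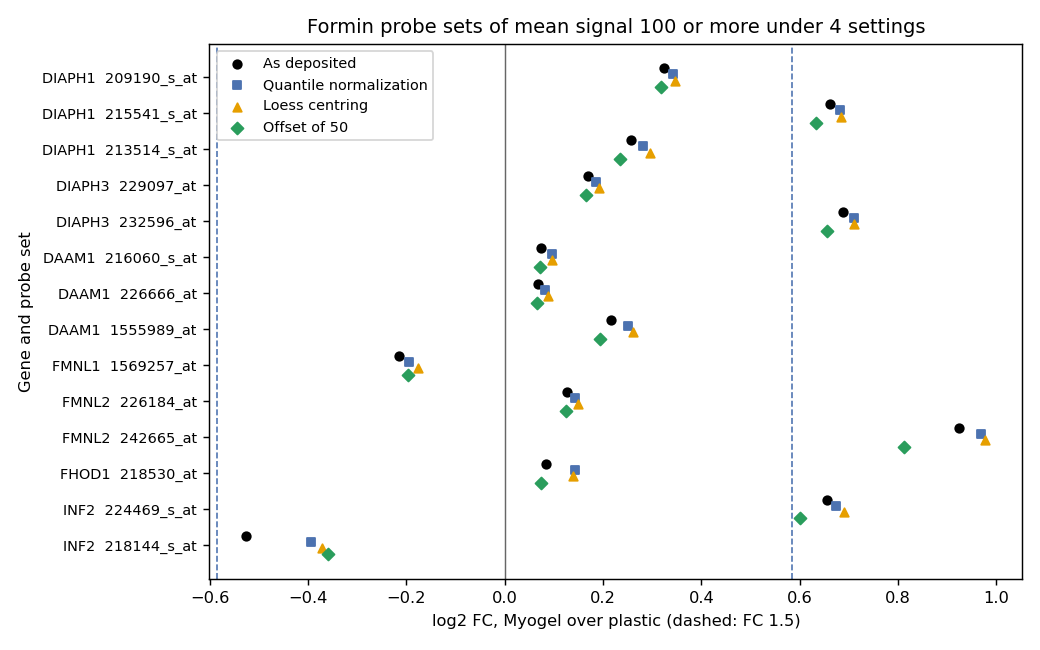
The log2 FC of Myogel over plastic (x axis) of the 14 formin probe sets with a mean signal of 100 or more (y axis), as deposited and after quantile normalization, loess centring or the addition of 50 units to both values; dashed lines mark FC 1.5. All 14 keep their side of 0 in these 4 settings, and the same 4 probe sets of DIAPH1, DIAPH3, FMNL2 and INF2 lie beyond FC 1.5.

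Of 5 further human formins, 4 had a probe set. FMN1 had 101 on plastic and 75.2 on Myogel in its brightest probe set, the largest change among those at or above the median signal, and its 2 dimmer probe sets were higher on Myogel. FHDC1 (366 on plastic, 363 on Myogel) and FHOD3 (149 and 131) stayed within FC 1.5. FMN2, which the naming rule did not pick, had 24.0 on plastic and 99.8 on Myogel in its brightest probe set and 24.6 and 10.1 in another. The log2 FC of the brightest, 2.05, lay above its range of -1.45 to 1.54, and the other lay inside its range. In the brightest probe sets 1 of the 4 was higher by FC 1.5 and 0 were lower, with a median log2 FC of -0.10.

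The GTPases that release formins from their folded form changed little in their brightest probe sets, but not in every bright one. By the brightest probe set 0 of 6 measured genes passed FC 1.5 in either direction, and the median log2 FC was -0.08. Of their 15 probe sets with a mean signal of 100 or more, 0 were higher by FC 1.5 and 1 was lower. This was 1555814_a_at of RHOA, with 3206 on plastic and 1628 on Myogel, 1.97-fold lower, and its log2 FC of -0.98 lay below the range of -0.41 to 0.38. The brightest probe set of RHOA had 8617 on plastic and 8092 on Myogel, so the probe sets of this gene disagree in size. Among the brightest probe sets RHOB had the largest fold change, 1.27-fold higher (497 on plastic, 630 on Myogel). Its 4 dimmer probe sets were lower, 1 of which turned higher after loess centring. CDC42, an activator of FMNL2, had 5881 on plastic and 5740 on Myogel in its brightest probe set, 2517 and 2973 in another and 3058 and 2109 in 226400_at, whose log2 FC of -0.54 lay below its range of -0.39 to 0.38. RHOC, which also activates FMNL2, had 2721 on plastic and 2319 on Myogel in its bright probe set.

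By the brightest probe set of 17 measured partners of formins, 0 were higher by FC 1.5 and 1 was lower, with a median of -0.07. The lower one was SPIRE2, a nucleator that works with formins (104 on plastic, 67.0 on Myogel), which fell within FC 1.5 after loess centring and whose dimmest 2 probe sets were higher on Myogel. The brightest probe set of SPIRE2 had a log2 FC of -0.63, inside its range of -1.09 to 0.96. Of the 32 partner probe sets with a mean signal of 100 or more, 2 were higher by FC 1.5 and 1 was lower. The higher ones belonged to SPIRE1, a nucleator like SPIRE2 (133.35 on plastic and 395.88 on Myogel, 2.97-fold higher), and to CLIP1, a microtubule end protein (702 and 1053, log2 FC 0.59). The lower one belonged to ROCK1, a kinase downstream of RHOA (1413 on plastic, 928 on Myogel, log2 FC -0.61), and lay just within FC 1.5 after loess centring. These 3 probe sets lay outside their ranges, those of SPIRE1 and CLIP1 above and that of ROCK1 below. The brightest probe sets of these 3 genes stayed within FC 1.5, with log2 FCs of -0.11 for SPIRE1, -0.20 for CLIP1 and 0.09 for ROCK1. These and other partners are named for their values and not by rule. PFN1, the profilin that delivers actin to formins, had 5383 on plastic and 3806 on Myogel, 1.41-fold lower. Its log2 FC of -0.50 lay below the range of -0.34 to 0.30. DVL1, a Dishevelled protein of the kind that DAAM1 binds, had 1249 and 1843, 1.48-fold higher. Its log2 FC of 0.56 lay above the range of -0.45 to 0.44. ROCK2, whose family activates FHOD1, had no single direction, with 1731 on plastic and 2340 on Myogel in one probe set and 853 and 739 in the other. The brighter of them, with a log2 FC of 0.44, lay above its range of -0.42 to 0.37, and the other lay inside. Bright probe sets of the partners IQGAP1 (log2 FC 0.56) and MAPRE1 (-0.49) lay above and below their ranges, while the brightest probe sets of both genes lay inside.

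Actin assembly by formins releases the coactivator MRTF to SRF. By the brightest probe set, 0 of 12 measured genes of this list passed FC 1.5 in either direction, and the median log2 FC was 0.04. SRF had the largest change, 1.37-fold lower (195 on plastic, 143 on Myogel). Of the 17 probe sets of this list with a mean signal of 100 or more, 1 was higher by FC 1.5 and 0 were lower. The higher one belonged to the coactivator gene MRTFA (118 on plastic, 187 on Myogel), whose brightest probe set had 261 and 248. The log2 FC of the higher one, 0.67, lay above its range of -0.90 to 0.63. Probe set 210987_x_at of TPM1 had 1760 on plastic and 1267 on Myogel. Its log2 FC of -0.47 lay below the range of -0.45 to 0.45, while the brightest probe set of TPM1 lay inside. The other main nucleator of actin, the Arp2/3 complex, builds branched networks. By the brightest probe set 0 of its 8 measured subunits passed FC 1.5, with a median of -0.04, and ARPC1B had the largest difference, 1.17-fold higher (4094 on plastic, 4801 on Myogel). Of its 19 probe sets with a mean signal of 100 or more 0 passed FC 1.5, and 1 was higher by as much after loess centring. In the brightest probe set, 2 of the 8 subunits and 6 of the 10 formins were higher on Myogel to any extent. The share over all genes was not computed, and their median log2 FC was -0.07, so an even split is not the background. After loess centring DIAPH2 (log2 FC 0.20) and ARPC2 (0.03) turned higher as well. Whether the 2 families differ was not tested.

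**Figure D4:**
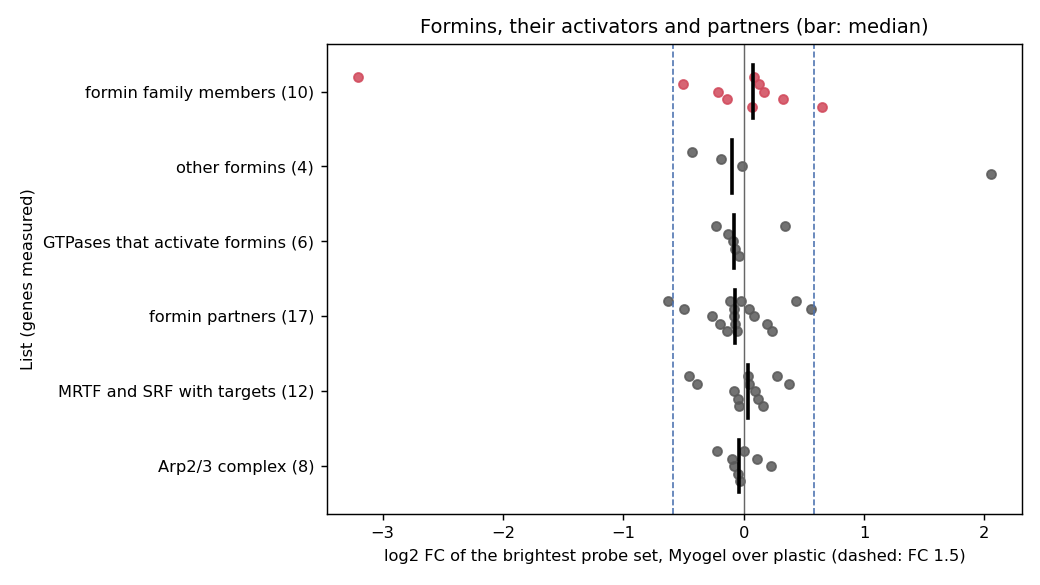
The log2 FC of the brightest probe set of each gene (x axis, Myogel over plastic) for the 10 formins followed here (red) and for further formins, activating GTPases, partners, the MRTF and SRF list and the Arp2/3 complex (grey), with the number of genes measured in parentheses, a black bar at each median and dashed lines at FC 1.5. Most genes lie between the dashed lines, and the point far to the left is DAAM2, whose probe set is near the floor on Myogel.

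Antisense transcripts of 4 members have probe sets of their own, and these were dim. DIAPH3-AS1 had 66.4 on plastic and 40.1 on Myogel in its brightest probe set, and DAAM2-AS1 had 43.0 and 15.3. DIAPH2-AS1 had 42.3 and 26.1 in its brighter one, and DIAPH1-AS1 had 2.05 and 13.5. These were chosen with their values in view.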

How the data were processed

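RNA of HSC-3 cells on plastic and on Myogel was measured on 1 array per surface, each loaded with a pool of 3 wells; groups were taken from the sample titles. The deposited values are linear intensity values that the authors made with dChip. For dChip, version, model and between-array scaling: not given in the sources used here. A protocol label names an uncoated plate for both samples, against the titles and the series description. Both columns were used, without further scaling, over 54613 probe sets; 62 control probe sets were left out.

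Symbols came from the platform annotation, updated by Entrez identifier through RefSeq (GRCh38.p14). Of the probe sets, 41091 had 1 symbol, 1801 had several and 11721 are unnamed here. The brightest probe set by mean log2 value represented a gene. FC 1.5 was the threshold, as in the methods of the study. At this FC 7553 probe sets were higher and 13207 lower here, far more than the study reports. Its methods name no further criterion. The number of arrays limits the precision. The genes named were the 10 formins, by every probe set, and from the lists of related genes at most 3 per direction that passed FC 1.5 and had a signal not under the median of 53.8, or else the gene that changed most. The members and lists were chosen with earlier results of these data known. Alternatives were quantile normalization, loess centring (span 0.3), a median log2 ratio of 0, offsets of 16 and 50, filters on signal and probe set type, FC 1.2 or FC 2 as threshold, FC 1.5 plus a difference of 100 units, and the mean or any probe set of a gene. Computations used pandas 2.3.3, numpy 2.4.6 and statsmodels 0.14.6 in Python 3.11.15, plots matplotlib 3.10.9, and the scripts were tested on simulated data.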

Additional observations from a re-analysis of the deposited data

How the results depend on the processing

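The count of 9 formin probe sets higher by FC 1.5 was 4 with an offset of 50, 4 with FC 2 and 4 with a difference of 100 units. It was 4 with a mean signal of 100 or more (chosen after the data were seen) and 5 when the brighter of both values had to reach the median. With an offset of 16 it was 6, as it was without probe sets of the _x_at, _s_at and _a_at kinds. Quantile normalization or loess centring gave 10, and FC 1.2 gave 13. The count of 5 lower ones was 1 with an offset of 50, 3 without probe sets of those 3 kinds and 8 with FC 1.2. It was 0 with the difference of 100 units or with either filter on signal. An offset of 16, FC 2, quantile normalization, loess centring or a median log2 ratio of 0 each gave 4. The median log2 FC of 0.19 was 0.22 after quantile normalization, 0.23 after loess centring, 0.30 with the median ratio set to 0, 0.13 with an offset of 16, 0.073 with an offset of 50, 0.26 when the brighter value had to reach the median and 0.15 without those 3 kinds. The count of 1 higher gene was 2 with FC 1.2, 0 with FC 2, 2 with the mean over probe sets and 7 with any probe set. The count of 1 lower gene was 2 with FC 1.2, 4 with any probe set, and 0 with an offset of 50, the difference of 100 units or either filter on signal. Under the 5 scalings and offsets no formin probe set beyond FC 1.5 changed direction. The causes of these shifts were not tested, beyond the fewer probe sets that a filter or a stricter limit leaves. With 1 array per surface no replicate could be left out.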
